A study of Rattus norvegicus with 4 samples.

Results

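The cilium genes described here are 25 genes of the rat choroid plexus, chosen by the start of their names (among them CFAP, RSPH, TEKT, IFT, DYNLL, DYNLRB, TTC, ARL3, ARL6 and CETN) from the study's own list of genes of the male choroid plexus. The deposited tables held 32883 gene IDs, and the copy of the list used here paired 1998 of them with names, all at or above 57.79 TPM (a level per length of transcript, scaled to a sum of 1000000 in each library) in the male library. A high male level was therefore a condition for entry, and the member nearest to that bound was CFAP52 with 61.4 TPM. The 4 genes ARL6IP1, ARL6IP5, TTC7A and TTC9 were taken in by name and not for a known part in the cilium, which left 21 others. Gene families without a gene in this copy, such as the dynein heavy chains, the BBS proteins and FOXJ1, were not analysed here.

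The choroid plexus is the tissue in the brain ventricles that makes most of the cerebrospinal fluid, and its epithelial cells carry tufts of cilia on the side that faces the fluid. A cilium is built around an axoneme, a ring of paired microtubules that grows from a basal body. In motile cilia, dynein arms bend the axoneme and radial spokes transmit signals from the central pair to the arms. Intraflagellar transport carries building blocks along the axoneme, and small GTPases such as ARL3 release lipid-modified cargo inside the cilium. Some of the genes work outside the cilium as well, since the dynein light chains also serve the cytoplasmic dynein motor and other protein complexes.

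mRNA levels were compared between 4 libraries from Sprague Dawley rats aged 9 weeks, with 1 library per condition. Whole choroid plexus came from 5 male rats pooled and from 5 female rats pooled. The FACS epithelial cells came from 10 male rats pooled, with the choroid plexus digested by collagenase and the cells sorted by an antibody against NKCC1, a cotransporter of the epithelial surface. Proximal tubules were picked by hand from digested kidneys of 5 male rats pooled, by the study's methods the rats that gave the male choroid plexus. No treatment distinguished the groups. With 1 pooled library per condition, no spread between animals could be measured and no test was possible, so the intervals given are 95% exact Poisson intervals of the expected counts and cover counting error only.

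Expected counts summed to 28324976 for male and 25376480 for female choroid plexus, to 23873318 in the FACS epithelial cells and to 25130213 in the proximal tubule. Mitochondrially encoded genes took 70.7% of the tubule counts and between 4.32% and 5.34% of the others, which left 7352952 tubule counts for all other genes. TTR, the transthyretin secreted by the choroid plexus epithelium, reached 238565 TPM in male and 285892 TPM in female tissue, 389655 TPM in the FACS epithelial cells and 0.07 TPM in the tubule. The FACS library also held more of the immune markers, with a summed level of 5262 TPM over 7 genes against 949 in male and 611 in female tissue, and CD74 alone at 2556 TPM. Its blood markers (3 haemoglobin genes) summed to 1568 TPM against 8109 in the male library. The 7 proximal tubule markers summed to 3004 TPM in the tubule and to between 14.1 and 21.6 TPM in the other libraries.

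Promoter sequences bear on how genes of the cilium are known to be switched on together, since RFX factors and the forkhead factor FOXJ1 bind upstream of many of them. Of the 25 genes, 15 had an entry in the RefSeq promoter set of build GRCr8, each with 250 bases before and 50 after the gene start. These 15 included ARL6IP1 and ARL6IP5, matched by name. The RFX half-site GTTNCCAT (ATGGNAAC on the other strand) was in 3 of these 15 windows of 300 bases, which is 20%, against 4.70% of all 33469 promoters. That share rests on 3 genes and the difference was not tested. The forkhead core GTAAACA, searched on both strands, was in 1 of 15, that of CFAP20, against 3.78% of all promoters. Only exact matches of these letters were searched, so a near match would have been missed. The windows of CFAP300, SPAG8 and TEKT1 held the RFX half-site within 39 bases of the start. These are printed with that of DYNLRB2, the gene that differed most between the male and female libraries, which held no exact match to either motif. A match of letters is a description and not a site of binding. They lay at chr8:13483609-13483858 on the minus strand for CFAP300, chr5:62699664-62699914 on the minus strand for SPAG8, chr10:57479122-57479371 on the minus strand for TEKT1 and chr19:61428830-61429079 on the plus strand for DYNLRB2. Each runs 5′ to 3′ up to the gene start (SPAG8 runs 1 base past it), with the RFX half-site in capitals:
CFAP300: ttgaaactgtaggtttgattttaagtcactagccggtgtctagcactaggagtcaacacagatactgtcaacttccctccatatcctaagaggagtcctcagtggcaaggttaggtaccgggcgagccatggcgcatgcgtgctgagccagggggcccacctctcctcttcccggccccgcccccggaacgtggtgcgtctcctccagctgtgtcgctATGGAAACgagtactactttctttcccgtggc
SPAG8: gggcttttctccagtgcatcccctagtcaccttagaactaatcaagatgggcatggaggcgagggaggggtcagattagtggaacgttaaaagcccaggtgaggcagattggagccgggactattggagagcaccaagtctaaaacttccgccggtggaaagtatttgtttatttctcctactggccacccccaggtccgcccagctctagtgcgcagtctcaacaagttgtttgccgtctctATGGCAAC
TEKT1: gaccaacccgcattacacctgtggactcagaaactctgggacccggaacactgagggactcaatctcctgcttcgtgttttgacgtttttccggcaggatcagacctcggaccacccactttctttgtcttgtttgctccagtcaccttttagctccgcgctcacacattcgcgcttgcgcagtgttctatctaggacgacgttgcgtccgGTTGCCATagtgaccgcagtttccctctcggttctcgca
DYNLRB2: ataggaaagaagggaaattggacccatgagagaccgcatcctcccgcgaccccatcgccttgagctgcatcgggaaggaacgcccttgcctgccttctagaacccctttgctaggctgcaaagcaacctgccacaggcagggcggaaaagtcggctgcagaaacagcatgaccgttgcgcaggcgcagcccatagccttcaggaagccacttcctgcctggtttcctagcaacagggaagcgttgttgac

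Summed over the 25 genes, whole tissue held 3567 TPM (male) and 3582 TPM (female). They took 2237 TPM in the FACS epithelial cells and 412 TPM in the proximal tubule. These sums are on the deposited scale, on which mitochondrially encoded genes, with 70.7% of the tubule counts, lower every other tubule level. Ranked among all gene IDs of the male library they stood between place 225 (DYNLL1) and place 1885 (CFAP52), and between 219 and 1700 in the female library. Expected counts ran from 717 (DYNLRB2) to 16187 (ARL6IP1) in the male library, so counting error was small beside most differences in the FACS and tubule libraries. The plot of levels by gene gives all 4 libraries side by side.

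**Figure D1:**
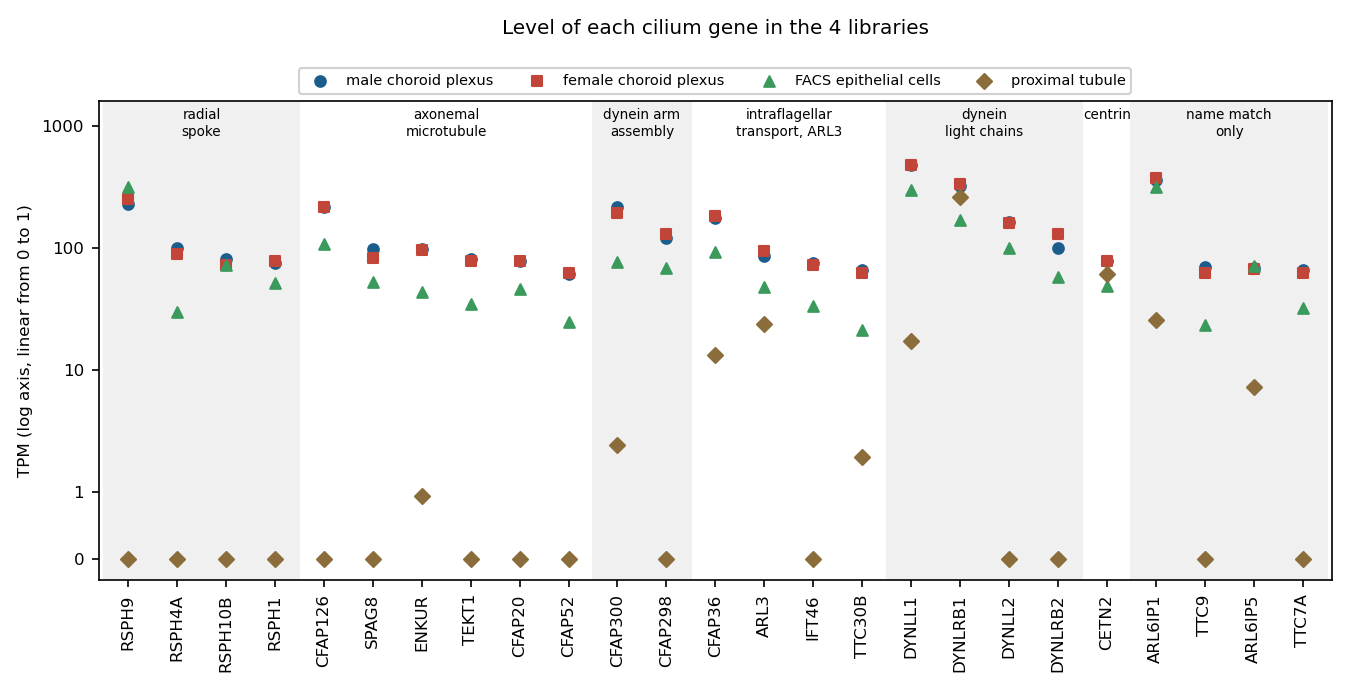
Level of each of the 25 genes in TPM (vertical axis, logarithmic above 1 and linear from 0 to 1) in the male and female choroid plexus, the FACS epithelial cells and the proximal tubule, 1 point per library and gene, grouped by role. Male and female points lie together, most FACS points lie below them, and 15 tubule points lie at 0.

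The radial spoke genes ranged widely. RSPH9, a protein of the spoke head, was at 231 TPM in male and 252 TPM in female tissue, 314 TPM in the FACS epithelial cells and 0 in the tubule. It was the highest of the radial spoke genes in each choroid plexus library (gene ID ENSRNOG00000019474). RSPH4A (ENSRNOG00000049696), another spoke head protein, was at 99.1 TPM in male and 89.6 TPM in female tissue and at 29.9 TPM in the FACS epithelial cells. RSPH1, also of the spoke head, stood at 75.6, 77.7 and 51.8 TPM in the same order. RSPH10B had 80.4, 72.0 and 72.8 TPM. All of them were listed at 0 in the tubule, and their order differed between whole tissue and sorted cells, with RSPH4A second in both whole tissue libraries and last in the sorted cells.

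The axonemal microtubule proteins bind or line the doublet microtubules. CFAP126 led them with 217 TPM in both the male and the female library and 107 TPM in the FACS epithelial cells. SPAG8 followed with 98.5 TPM in male and 82.9 TPM in female tissue and 52.5 TPM in the sorted cells. ENKUR, enkurin, had 98.1, 95.4 and 43.5 TPM, and was the single gene of these 6 with tubule counts (43 counts, 0.93 TPM). TEKT1, tektin 1, a filament protein inside the doublets, had 81.2, 78.3 and 34.5 TPM. CFAP20 had 77.5, 78.0 and 46.2 TPM, and CFAP52 had 61.4, 61.9 and 24.6 TPM. In each of these genes the FACS level was the lowest of the choroid plexus libraries and its counting interval lay below both whole tissue intervals. The share of all genes with such FACS intervals was not computed, so this is not read as particular to these genes.

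Genes for the assembly of dynein arms in the cytoplasm were CFAP300 and CFAP298. CFAP300 was at 216 TPM in male and 192 TPM in female tissue, 76.2 TPM in the FACS epithelial cells and 2.39 TPM in the tubule. CFAP298 was at 121 and 129 TPM in whole tissue, 68.4 TPM in the sorted cells and 0 in the tubule. The male library thus held more CFAP300 than the female and less CFAP298. Counting intervals did not overlap for CFAP300 (211 to 222 against 186 to 197 TPM) but did for CFAP298 (117 to 126 against 124 to 134 TPM). By the same rule 52.6% of the named genes of the list were lower and 11.4% higher in the female library.

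Among the genes of intraflagellar transport and ARL3 traffic, CFAP36, which binds ARL3, was the highest with 177 TPM in male and 183 TPM in female tissue, 92.8 TPM in the sorted cells and 13.2 TPM in the tubule. ARL3 itself had 86.6, 94.7, 47.8 and 23.7 TPM. IFT46, a subunit of the anterograde transport complex IFT-B, had 75.6, 73.0 and 33.5 TPM and was listed at 0 in the tubule. TTC30B, another subunit of IFT-B, had 65.5, 62.3, 21.0 and 1.94 TPM. The expected counts of TTC30B in all choroid plexus libraries and of RSPH4A in both whole tissue libraries were not whole numbers, so reads had been divided between genes there and these levels are less certain. The count of RSPH4A in the FACS epithelial cells was whole (1729).

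The 4 dynein light chains had the highest summed level of all roles in each library, from 1099 TPM in the female choroid plexus down to 277 TPM in the tubule. DYNLL1 was at 474 TPM in male and 476 TPM in female tissue, 301 TPM in the FACS epithelial cells and 17.3 TPM in the tubule. DYNLRB1 was at 324, 332, 170 and 259 TPM. DYNLL2 was at 163, 161 and 99.9 TPM and DYNLRB2, the roadblock light chain associated with cilia, at 99.9, 131 and 57.6 TPM, both listed at 0 in the tubule. CETN2, a centrin of the centriole and basal body, was at 77.3, 77.8, 48.5 and 60.9 TPM. DYNLRB1 and CETN2 were the only members whose deposited tubule level exceeded that in the sorted cells. This holds for the deposited scale, on which mitochondrially encoded genes took 70.7% of the tubule counts and 4.64% of the FACS counts.

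The light chains form a pair of close relatives in each family. The male and female intervals of the ratio overlapped for the DYNLL pair and not for the roadblock pair. The share of other pairs of genes without overlap was not computed, so this is not read as particular to the roadblock pair. Among single named genes, 11.4% were higher and 52.6% lower in the female library without overlap. DYNLRB2 was also the shortest member, and the part of length in the ratio of the roadblock pair was not tested. DYNLL2 stood to DYNLL1 at 0.343 (interval 0.331 to 0.356) in the male, 0.338 (0.325 to 0.350) in the female and 0.331 (0.317 to 0.347) in the FACS library, with intervals that overlapped throughout. DYNLRB2 stood to DYNLRB1 at 0.309 (0.285 to 0.335) in the male, 0.395 (0.366 to 0.425) in the female and 0.339 (0.304 to 0.377) in the FACS library, so that the male and female intervals did not overlap. In the tubule DYNLRB2 and DYNLL2 were listed at 0, beside DYNLRB1 at 259 TPM and DYNLL1 at 17.3 TPM, and no ratio is given.

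Of the genes matched by name, ARL6IP1 and ARL6IP5 encode membrane proteins of the endoplasmic reticulum and TTC7A a scaffold of a lipid kinase complex at the plasma membrane. ARL6IP1 was at 363 TPM in male and 374 TPM in female tissue, 316 TPM in the sorted cells and 25.4 TPM in the tubule. ARL6IP5 was at 68.6, 67.0, 70.8 and 7.15 TPM. TTC9 had 69.4, 62.3 and 23.4 TPM, TTC7A had 66.1, 62.6 and 32.2 TPM, and both were listed at 0 in the tubule. For ARL6IP5 the FACS and male counting intervals overlapped (67.5 to 74.2 against 65.3 to 72.0 TPM).

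The first comparison asked whether the cilium genes differed between male and female choroid plexus. Their median log2 ratio of TPM + 1, female to male, was 0.00, where all 13869 genes at or above 0.5 TPM in either library had a median of −0.16 and the named genes of the list one of −0.11. None of the 25 reached a 2-fold difference, against a background of 0.440% of all genes 2-fold higher and 0.959% 2-fold lower (0.150% and 0.350% of the named genes). The highest ratio was that of DYNLRB2 (0.39) and the lowest that of SPAG8 (−0.25). Of the 25, 22 (88%) lay above the median of all genes, the exceptions being SPAG8, CFAP300 and RSPH10B, and so did 61.3% of the named genes of the list.

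How many genes were nominally higher depended on the scaling. As deposited, 13 were higher and 12 lower in the female library. With the 10 highest genes of each library taken out the split was 20 to 5, and with mitochondrially encoded genes taken out it was 8 to 17. Relative to all genes, the median of the members stayed 0.16 to 0.17 higher under these scalings.

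Counting intervals did not overlap for 10 of the 25 genes. Female was higher for DYNLRB2, ARL3, RSPH9 and ARL6IP1, and lower for CFAP300, SPAG8, RSPH4A, RSPH10B, TTC9 and TTC7A. Among the named genes of the list, 11.4% were higher and 52.6% lower by the same rule, so non-overlap was frequent in these deeply counted genes. The interval leaves out the spread between animals, which 1 pool per sex cannot give. DYNLRB2 had 717 counts in the male and 913 in the female library, that is 99.9 TPM (interval 92.7 to 107) against 131 TPM (123 to 140).

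The ratio also moved with the length of the transcripts. Across the 25 genes Spearman's rho between effective length and the female to male log2 ratio was −0.59, as a description, and it was −0.53 across the named genes of the list and −0.31 across all genes. DYNLRB2, which had the highest ratio, was also the shortest at 293 bases, and the members had a median effective length of 1160 bases against 1836 bases for all genes. The 13 shorter members had a median ratio of 0.01 and the 12 longer ones one of −0.06, where list genes within the same span of lengths, divided at the same length, had −0.03 and −0.16. The part of length in the difference was not tested.

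Other cilium genes of the same list were read beside them. Of 7 other genes of the motile axoneme, 2 were higher and 5 lower in the female library, from TUBB4B, a tubulin of axonemes (−0.29), to LRRC23, of the radial spoke (0.09), with a median of −0.02. Of 13 genes of the ciliary base and its traffic, 2 were higher and 11 lower, from DZIP1 (−0.44) to CATIP (0.14), with a median of −0.15. The 6 genes of cytoplasmic dynein and dynactin had a median of −0.13, with PAFAH1B1 lowest (−0.38) and DCTN3 highest (0.05).

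The second comparison asked how the sorted epithelial cells differed from the whole tissue. Of the 25 cilium genes 23 (92%) were lower in the FACS epithelial cells than in the male choroid plexus, beside 78.0% of all 14024 genes and 83.1% of the named genes of the list. Of the 25, 10, or 40%, were at or past 2-fold lower, against a background of 25.5% of all genes and 29.0% of the named genes. Those 10 were RSPH4A, TTC30B, TTC9, CFAP300, CFAP52, TEKT1, ENKUR, IFT46, CFAP126 and TTC7A. The median log2 ratio of the members was −0.89, that of all genes −0.58 and that of the list −0.66. RSPH9 (0.44) and ARL6IP5 (0.04) were higher, and no member was 2-fold higher, a class that held 4.61% of all genes and 1.40% of the named genes. In these bulk libraries fewer cells of a type and less RNA per cell cannot be told apart.

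The roles differed in where their genes lay. The axonemal microtubule proteins had a median of −1.08, from CFAP52 (−1.29) to CFAP20 (−0.74). As deposited, 4 of 6 were at or past 2-fold lower, beside 25.5% of all genes and 29.0% of the named genes. With the 10 highest genes of each library removed none of the 6 was, and CFAP52 was the lowest of them at −0.90. The intraflagellar transport and ARL3 genes had a median of −1.04, from TTC30B (−1.59) to ARL3 (−0.84). CFAP300 (−1.49) and CFAP298 (−0.82), of dynein arm assembly, were both below the median of all genes. The dynein light chains were narrower, with a median of −0.74 and a range from DYNLRB1 (−0.92) to DYNLL1 (−0.65), and CETN2 was at −0.66. No light chain reached a 2-fold difference.

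The radial spoke genes spread most, from RSPH4A (−1.70, the lowest of all 25) over RSPH1 (−0.54) and RSPH10B (−0.14) to RSPH9 (0.44, the highest). The level of RSPH9 was 2.33 times that of RSPH4A in the male library (interval 2.24 to 2.43), 2.81 times in the female and 10.5 times in the FACS epithelial cells (9.95 to 11.1). Against RSPH1 it was 3.06, 3.24 and 6.07 times as high. A ratio of genes within a library does not change with the scaling of that library. These differences in ratio therefore hold under each scaling, with the reservation that the whole tissue counts of RSPH4A were not whole numbers. The FACS library also listed 2 of 68 ribosomal protein genes at 0, RPS6 and RPL38. RPS6 had 6196 counts in the male and 5205 in the female library. Whether a similar loss of single genes lay in the FACS levels of the members was not tested.

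**Figure D2:**
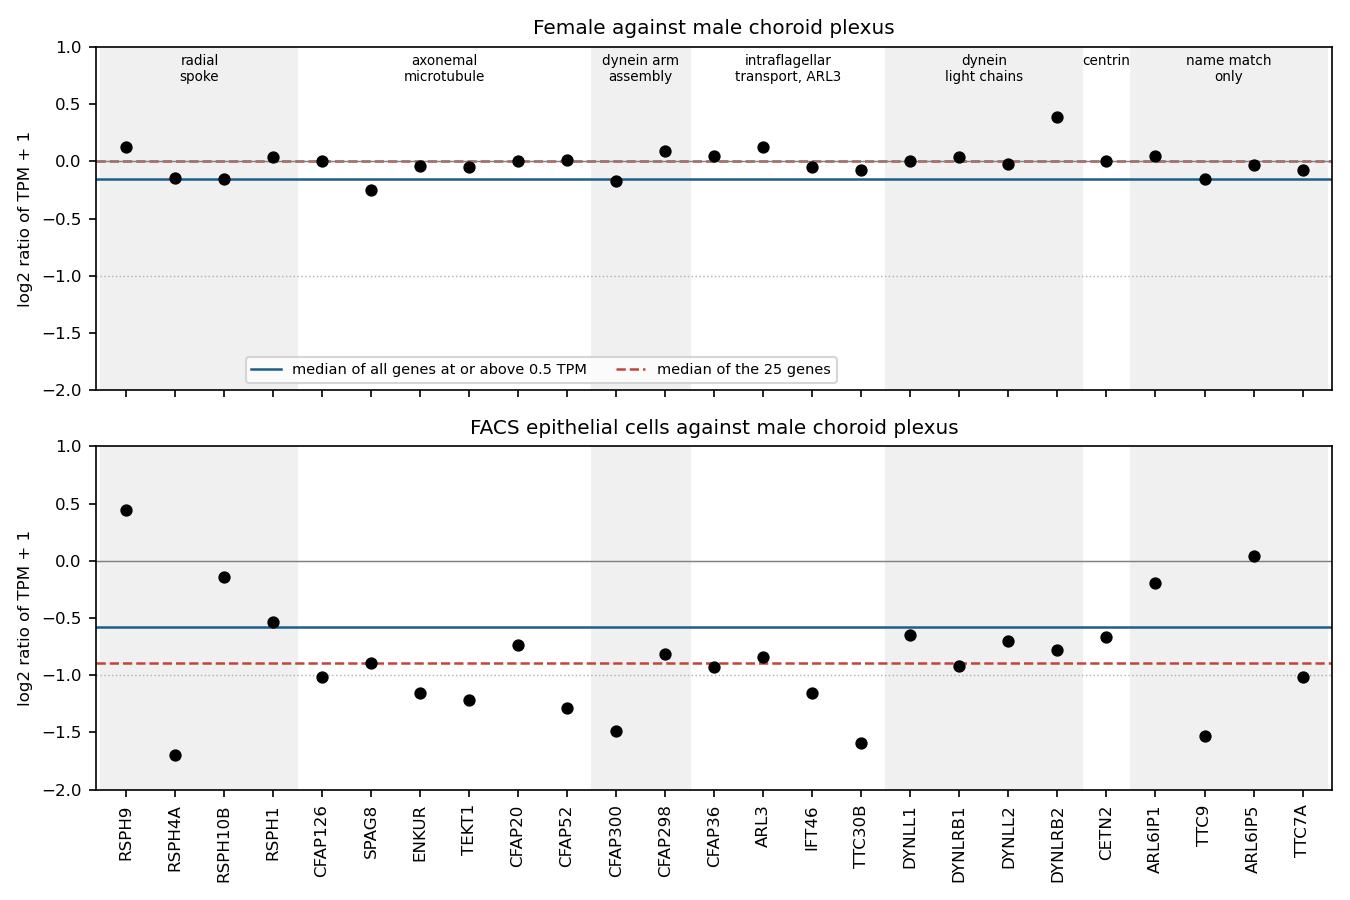
Log2 ratio of TPM + 1 of each of the 25 genes, female to male choroid plexus (upper panel) and FACS epithelial cells to male choroid plexus (lower panel), with 1 library per group, the median of all genes at or above 0.5 TPM (solid blue line) and the median of the 25 genes (dashed red line); dotted lines mark 2-fold lower. In the upper panel points lie near 0, and in the lower panel 10 points lie at or below the dotted line and RSPH9 and ARL6IP5 above 0.

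The number of genes past 2-fold depended on the scaling. TTR alone took 238565 of the 1000000 TPM in male tissue and 389655 in the sorted cells. With the 10 highest genes of each library taken out and the rest rescaled, the median of all genes became −0.25 and that of the members −0.49. Under that scaling 4 members, RSPH4A, TTC30B, TTC9 and CFAP300, were at or past 2-fold lower against 13.7% of all genes. ARL6IP1 and RSPH10B joined the genes that were higher. Below the median of all genes lay 20 of 25 members (80%) as deposited, beside 54.1% of the named genes of the list, and 19 of 25 in the rescaled values.

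The female library in place of the male as whole tissue also gave 10 of 25 members at or past 2-fold lower, against 16.8% of all genes in that comparison. The share of the named genes, which like the members entered at a high male level, was not computed there. Against the male library, without the genes matched by name, 8 of 21 were at or past 2-fold lower, or 38.1%. Length moved with this ratio too, with a median of −0.78 in the 13 shorter and −1.08 in the 12 longer members beside −0.53 and −0.74 in the shorter and longer list genes of that span, and its part was not tested.

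Other cilium genes lay in the same range. All 7 other motile axoneme genes were lower in the FACS epithelial cells, with a median of −0.79, from WDR78 (−1.37) to LRRC23 (−0.67). At or past 2-fold lower were 3 of the 7, beside 25.5% of all genes and 29.0% of the named genes. Of the 13 ciliary base and traffic genes 12 were lower, with a median of −0.79, from ARL2BP, an effector of the ARL family (−1.26), to TXNDC15 (0.36), the one that was higher. The 6 genes of cytoplasmic dynein and dynactin were all lower, with a median of −0.79, from DYNC1LI2 (−1.35) to ACTR1A (−0.38). The last of these lists works mostly outside the cilium and lay where the ciliary base genes lay.

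Markers of cell types moved with this comparison in both directions. All 7 immune markers were higher in the FACS epithelial cells, 6 of them at or past 2-fold, with a median of 2.05. The 3 blood markers had a median of −2.18, the 4 glial markers one of −0.81 with a summed level of 13.1 TPM (male) and 7.17 TPM (FACS), the 8 endothelial markers one of 0.19 (182 and 265 TPM) and the 8 stromal markers one of 0.13 (1192 and 1733 TPM). The 11 markers of the choroid plexus epithelium had a median of −0.62, from OTX2 (−1.46) to TTR (0.71), and 9 of them were lower. The part of these cell types in the levels of the cilium genes was not tested.

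**Figure D3:**
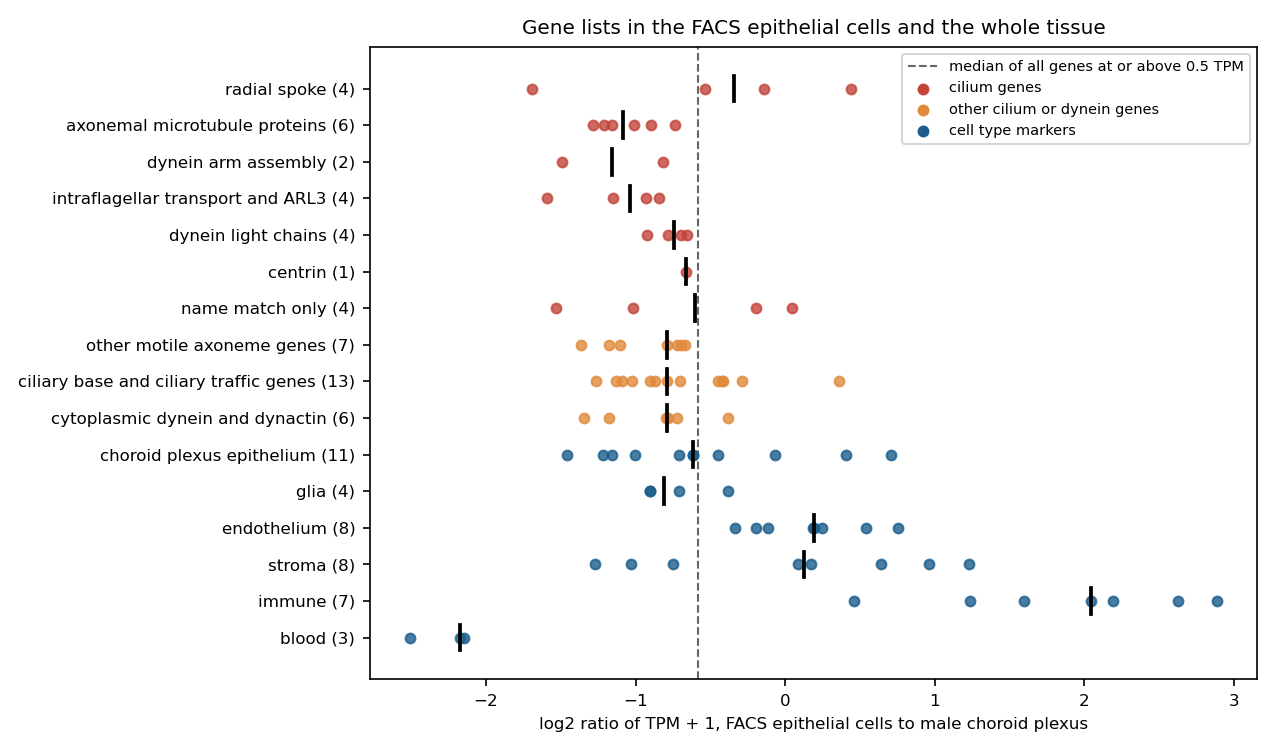
Log2 ratio of TPM + 1, FACS epithelial cells to male choroid plexus, 1 point per gene, for the cilium genes by role, for other cilium or dynein genes and for markers of cell types (numbers of genes in brackets), with 1 library per group; short black bars are medians and the dashed line is the median of all genes (−0.58). The axonemal genes centre at −1.08, the epithelium markers at −0.62 and the immune markers at 2.05.

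The third comparison set the proximal tubule of the kidney, an epithelium with a single primary cilium on each cell, against the choroid plexus. Of the 25 genes 15, or 60%, were listed with an expected count of 0 in the tubule, against 33.8% of the named genes of the list outside the mitochondrial genome and 58.6% of all genes that reached 0.5 TPM in male tissue. The 15 were all 4 radial spoke genes, 5 of the 6 axonemal genes (all but ENKUR), CFAP298, IFT46, DYNLL2, DYNLRB2, TTC9 and TTC7A. Of 68 cytosolic ribosomal protein genes, which every cell uses, RPS6 and RPS10 were also listed at 0 in this library. A 0 is therefore given here only as listed and without a fold. The FACS library listed RPS6 and RPL38 at 0, but none of the 25 genes.

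Of the other cilium genes, 4 of 7 in the motile axoneme and 8 of 13 at the ciliary base and in its traffic were listed at 0. None of the 6 genes of cytoplasmic dynein and dynactin was. The 10 members with counts had between 43 (ENKUR) and 3546 (DYNLRB1), and few genes of the list lay between these classes, with 670 at 0, 13 at 1 to 9 counts and 1302 at 10 or more.

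**Figure D4:**
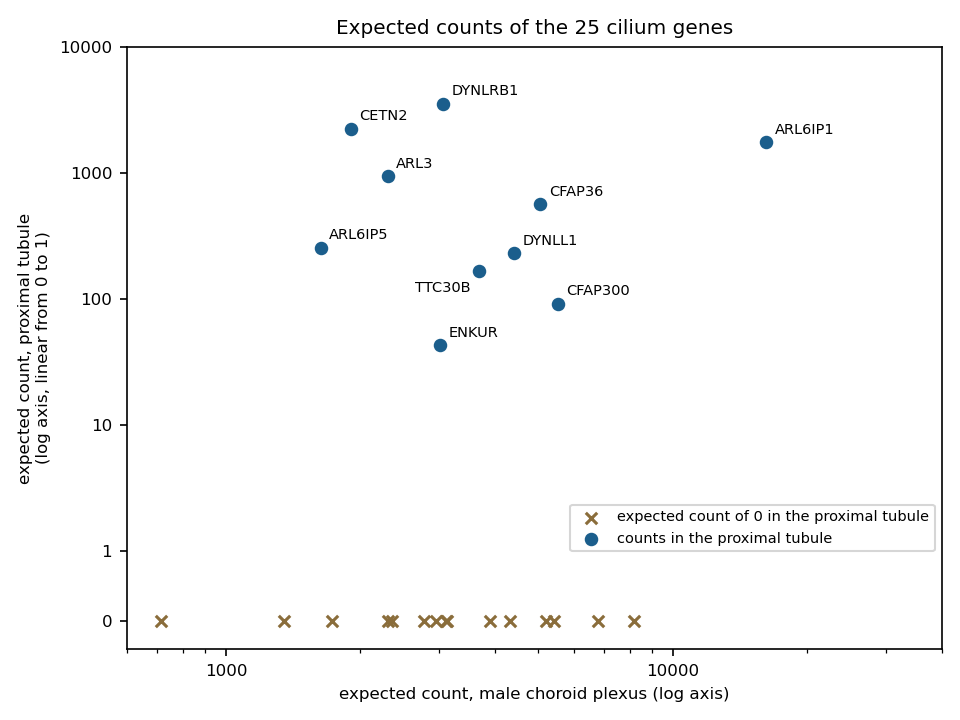
Expected count of each of the 25 genes in the proximal tubule (vertical axis, logarithmic above 1 and linear from 0 to 1) against that in the male choroid plexus (horizontal axis, logarithmic), 1 library each. Crosses are the 15 genes listed at 0, whose male counts run from 717 to 8182, and labelled circles are the 10 genes with counts in the tubule, from 43 to 3546.

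For the 10 genes with counts, levels were compared after the 13 mitochondrially encoded genes were removed from both libraries and the rest rescaled. DYNLRB1 then had 930 TPM in the tubule and 353 TPM in the male choroid plexus (log2 1.40), and CETN2 had 219 and 84.4 TPM (log2 1.36), but with mitochondrially encoded genes kept both were lower in the tubule (−0.32 and −0.34). They were 2 of 25 at or past 2-fold higher, where the background held 12.1% of all genes and 12.6% of the named genes. ARL3 had 85.0 against 94.5 TPM (log2 −0.15), but with mitochondrially encoded genes kept it was past 2-fold lower (−1.83).

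The other 7 with counts were at or past 2-fold lower in the tubule. ARL6IP5 (log2 −1.51), CFAP36 (−2.01) and ARL6IP1 (−2.10) were the nearest to the tissue level among them. DYNLL1 had 61.9 TPM against 518 TPM (−3.04), and TTC30B 6.96 TPM against 71.5 TPM (−3.19). CFAP300 with 8.57 TPM against 236 TPM (−4.63) and ENKUR with 3.34 TPM against 107 TPM (−4.64) were the lowest. With the 15 genes listed at 0 counted as lower, 22 of 25 were at or past 2-fold lower, beside 71.0% of all 14227 genes and 75.5% of the list, counted likewise. Only 7 of those 22 had tubule counts. The count therefore rests mostly on listed zeros, for which no fold is given. Of the dynein light chains, DYNLRB1 and DYNLL1 had tubule counts and their relatives DYNLRB2 and DYNLL2 were listed at 0.

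Effective length, the transcript length open to reads weighted by isoform, was a readout the listing had not used. Against the male library the most frequent shift among the longer named genes was −3.40 bases in the female and −17.05 bases in the FACS library. The share of other genes on that shift was not computed, so the members on it are not counted here. The largest departures of members from it were −15.84 bases for ARL6IP1 in the female and −17.39 bases for RSPH10B in the FACS library. The order of levels across the 25 genes was kept most closely between the whole tissue libraries. Spearman's rho was 0.98 between female and male and 0.83 between FACS and male, where the named genes of the list gave 0.97 and 0.79, all as descriptions.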

How the data were processed

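RNA was sequenced from 4 pooled rat libraries with 1 per group, as labelled by the submitters. Reads were mapped to Rnor_6.0 (annotation of Ensembl release 103) in STAR 2.7.2a and quantified in RSEM 1.3.3 by the authors. The expected count in the deposited tables is an RSEM estimate that need not be whole, and the deposited TPM sums to 1000000 per library. The deposited effective length, in bases, is weighted by isoform. FPKM, also deposited, was not used here.

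Genes were selected by the start of their names, as paired with gene IDs in the study's supplementary list, whose copy used here was shortened. The members and gene lists were chosen with earlier results of these data known. The 25 members were all named, grouped by role. One item of a comparison list is not reported here. Ratios were log2 of TPM + 1, which understates differences of low genes, and a gene was called at a 2-fold ratio. Backgrounds were all genes at or above 0.5 TPM in either library and the named genes of the list. For the tubule comparison the 13 mitochondrially encoded genes were removed and TPM rescaled. Expected counts, rounded, gave exact Poisson 95% intervals, and Wilson intervals gave the bounds of ratios between genes. As the libraries were single pools, no test was run. Promoters were those of RefSeq (GRCr8). Alternatives were other pseudocounts (0.1 and 0.5 TPM), other filters (5 TPM or none), other scalings and the female library as whole tissue. The ratio steps were tested on simulated data. Calculations ran in scipy 1.17.1 and pandas 2.3.3 under Python 3.11.15.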

Additional observations from a re-analysis of the deposited data

How the results depend on the processing

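The comparisons were recomputed under other settings (pseudocount, filter on low values, scaling, background, members without the 4 name matches, the female library as whole tissue), and 97 values stayed within 1.5 times of the reported one or on the same side, while 6 did not. The median of the members relative to the background of each setting ranged from 0.11 (named genes of the list) to 0.18 (log2) in the female against the male library, and from −0.50 (female library as whole tissue) to −0.21 in the FACS epithelial cells against whole tissue. In the FACS comparison 8 of 21 members without the name matches and 10 of 25 in the other 8 settings were at or past 2-fold lower, where the background held between 16.8% (female library) and 34.8% (pseudocount 0.1), and 4 of 25 were so with the 10 highest genes of each library removed, against 13.7%. In the female comparison 3 members lay below the median of all genes as reported, and 1 did with a pseudocount of 0.1, 5 with no filter on low values, 5 against the named genes of the list and 5 against list genes of like length, a background chosen after seeing the data. The cause was not tested. In the tubule comparison 22 or 23 of 25 members, and 18 of 21 without the name matches, were at or past 2-fold lower. These counts, and those of the background, take genes listed at 0 as lower. The background held between 59.6% (no filter on low values) and 79.0% (mitochondrially encoded genes kept). The 2 members that were 2-fold higher became 0 with mitochondrially encoded genes kept, which lowers every other tubule level by construction. No paired analysis was possible because each group is 1 pooled library, and leaving out a replicate was not possible for the same reason. The depth of the tubule library outside the mitochondrial genome (7352952 counts) and its listed zeros limit what can be said of the 15 genes at 0. The number of libraries limits every comparison, since no value carries a spread between animals.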
